A study of Mus musculus with 12 samples.

Results

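The respiratory chain subunits described here are 81 nuclear genes that encode parts of the mitochondrial electron transport complexes and of ATP synthase. They were picked by symbol alone, as all genes named Nduf (series a, b, c, s and v), Sdha to Sdhd, Uqcr, Cox4 to Cox8 and Atp5, and 1 probe set was kept per gene. They are 81 of 19938 genes with a single-symbol probe set: 35 of complex I, 4 of complex II, 8 of complex III, 17 of complex IV and 17 of complex V. Expression was measured on 12 single-colour arrays of total RNA from bone marrow derived mast cells, which are grown from mouse marrow in stem cell factor and IL-3. Donors were C57BL/6 wild type mice and mice lacking ACKR2 (ACKR2-/-, also written D6-/-), an atypical chemokine receptor that takes up inflammatory CC chemokines. The labels name C57BL/6 as strain, call the donors female and describe the cells as cultured mast cells. Cells were taken after 2 or after 10 weeks of culture, which gives 4 groups of 3 arrays: wild type at 2 weeks, ACKR2-/- at 2 weeks, wild type at 10 weeks and ACKR2-/- at 10 weeks. Some 2-week cultures were purified with CD117 antibody (CD117 is Kit, which binds stem cell factor), but the labels do not name the arrays concerned. The arrays of a group are called biological replicates and no animal or culture is named, so every p-value measures only the spread between these arrays.

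The respiratory chain sits in the inner mitochondrial membrane. Complexes I and II take electrons from NADH and succinate, complex III passes them to cytochrome c, complex IV passes them to oxygen, and complex V, the ATP synthase, uses the proton gradient built by complexes I, III and IV to make ATP. Complex II is made only from nuclear genes, while the other complexes also hold subunits encoded by mitochondrial DNA, which are not analysed here. Ndufa4, grouped here with complex I by its symbol, is now known as a subunit of complex IV. Many genes of the chain are known targets of the transcription factors NRF1, GABP and YY1. Mast cells are secretory cells of allergy and innate defence, and both glycolysis and respiration are known to feed their activation.

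Promoters are shown for 7 subunits on which the results below turn, or which are the general counterpart of a tissue isoform. The RefSeq promoter table (GRCm38.p6) held 66 of the 81 genes, with windows from 250 bases before to 50 bases after the annotated start. Both strands were searched for GCGC, any 2 bases and GCGC again (NRF1), CCGGAAG (GABPA) and AANATGGCG (YY1), and no 2 of these motifs overlap in the stretches printed. Capitals mark a motif. Each line holds the bases before the annotated start, 5′ to 3′ on the gene's strand, and stops where the model of another coding gene begins.
Uqcr11: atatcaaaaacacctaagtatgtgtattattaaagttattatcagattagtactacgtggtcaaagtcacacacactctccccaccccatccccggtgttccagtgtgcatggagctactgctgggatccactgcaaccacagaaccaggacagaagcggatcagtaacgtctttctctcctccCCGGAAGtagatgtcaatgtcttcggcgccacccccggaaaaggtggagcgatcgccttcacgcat
Sdhd: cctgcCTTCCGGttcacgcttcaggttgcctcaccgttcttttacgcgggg
Atp5k: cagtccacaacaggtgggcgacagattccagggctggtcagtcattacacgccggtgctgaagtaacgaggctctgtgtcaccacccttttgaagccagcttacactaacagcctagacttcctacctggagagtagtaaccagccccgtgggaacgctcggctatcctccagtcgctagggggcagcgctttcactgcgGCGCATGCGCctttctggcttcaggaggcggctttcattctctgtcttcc
Ndufb7: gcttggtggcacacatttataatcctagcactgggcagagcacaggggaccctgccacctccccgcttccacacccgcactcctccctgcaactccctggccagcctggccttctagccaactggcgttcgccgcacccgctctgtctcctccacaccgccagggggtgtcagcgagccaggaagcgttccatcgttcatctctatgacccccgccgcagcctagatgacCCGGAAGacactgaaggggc
Cox6b1: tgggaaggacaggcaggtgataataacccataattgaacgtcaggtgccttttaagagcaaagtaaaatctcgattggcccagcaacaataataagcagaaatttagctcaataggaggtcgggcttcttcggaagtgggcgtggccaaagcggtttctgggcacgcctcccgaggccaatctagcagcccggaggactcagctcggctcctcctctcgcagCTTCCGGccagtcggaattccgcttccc
Cox6b2: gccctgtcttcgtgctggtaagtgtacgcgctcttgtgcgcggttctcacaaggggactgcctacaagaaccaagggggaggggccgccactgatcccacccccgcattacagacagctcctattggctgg
Cox7a1: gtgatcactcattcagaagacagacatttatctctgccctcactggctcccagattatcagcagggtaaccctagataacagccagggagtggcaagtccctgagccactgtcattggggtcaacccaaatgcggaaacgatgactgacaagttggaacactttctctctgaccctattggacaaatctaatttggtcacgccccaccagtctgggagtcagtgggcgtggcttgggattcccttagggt
These windows lie at chr10:80406822-80407071 (minus strand) for Uqcr11, chr9:50603850-50603900 (minus strand) for Sdhd, chr5:108434400-108434649 (minus strand) for Atp5k and chr8:83566508-83566757 (plus strand) for Ndufb7. Those of complex IV lie at chr7:30626115-30626364 (minus strand) for Cox6b1, chr7:4753095-4753225 (minus strand) for Cox6b2 and chr7:30183921-30184170 (plus strand) for Cox7a1. The GABPA letters stood at -66 to -60 from the start of Uqcr11, at -46 to -40 in Sdhd, at -20 to -14 in Ndufb7 and at -28 to -22 in Cox6b1. Atp5k held the NRF1 letters at -50 to -41. Sdhd also held them at -79 to -70, beyond the printed stretch, and Atp5k held the GABPA letters at 12 to 18 after the start. Neither Cox6b2, a testis isoform, nor Cox7a1, a muscle isoform, held any of the letters in its window. Over the 66 subunits, 17 (25.8%) held the NRF1 letters, against 9.61% of 17492 coding genes in the table. The GABPA letters were in 17 (25.8%) against 12.9% of coding genes, and the YY1 letters in 10 (15.2%) against 3.64%. At least 1 of the 3 motifs was in 38 of the 66 subunits (57.6%), against 22.9% of coding genes. A match of letters is a description and not a measured binding site.

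Before the results, 4 arrays have to be named, because their RNA goes against their labels. On wild type 2-week array 3 and on ACKR2-/- 2-week arrays 1 to 3, the 13 measured mast cell markers averaged 6.59 to 6.72 on the log2 scale, against 11.97 to 12.73 on the other 8 arrays. On those 4 arrays the 11 T and NK cell markers averaged 8.67 to 11.61 and the 9 B cell markers 9.57 to 12.52, against at most 7.58 and 7.05 elsewhere. Xist read 5.77 to 6.23 and the Y-linked Kdm5d 10.06 to 10.51 on them, whereas Xist was at least 13.00 and Kdm5d at most 6.42 on the other arrays, although all donors are labelled female. Groups are therefore called by their labels throughout, and 1 wild type 2-week array and the whole ACKR2-/- 2-week group lack the defining mast cell transcripts. The Ackr2 probe set read 8.19 to 8.38, 7.79 to 9.43, 7.88 to 8.35 and 8.16 to 8.34 in the order of the groups given above. Whether it lies in the deleted part is not known, so it checks no label. In bulk RNA, fewer cells of a type and less RNA per cell cannot be told apart.

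The range of a subunit's log2 values over the 12 arrays had a median of 0.88, against 0.75 over all genes. In 24 of 81 subunits (29.6%) it was more than 1, against 32.7% of all genes, and in 0 it was more than 2, against 11.5%. Among genes with a mean above 10, 61 subunits had a median range of 0.81 and all 4132 genes one of 0.91, with 0 and 13.1% past 2. Over the 10-week arrays alone, which all carry mast cell transcripts, the median range was not lower in the subunits. It was 0.55 in the subunits with a mean above 10 and 0.50 in all such genes. Without that cut on the mean it was 0.55 in the subunits and 0.53 in all genes. The widest 12-array ranges belonged to Ndufb6 (1.81), Cox6b2 (1.80), Cox6a2 (1.76), Ndufa1 (1.71), Uqcr11 (1.64), Ndufs5 (1.61), Cox5a (1.59) and Cox7a1 (1.59). Sdha, the flavoprotein of complex II that oxidises succinate, and Ndufv2, an iron-sulfur protein of complex I, spanned only 0.32 and 0.23.

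**Figure D1:**
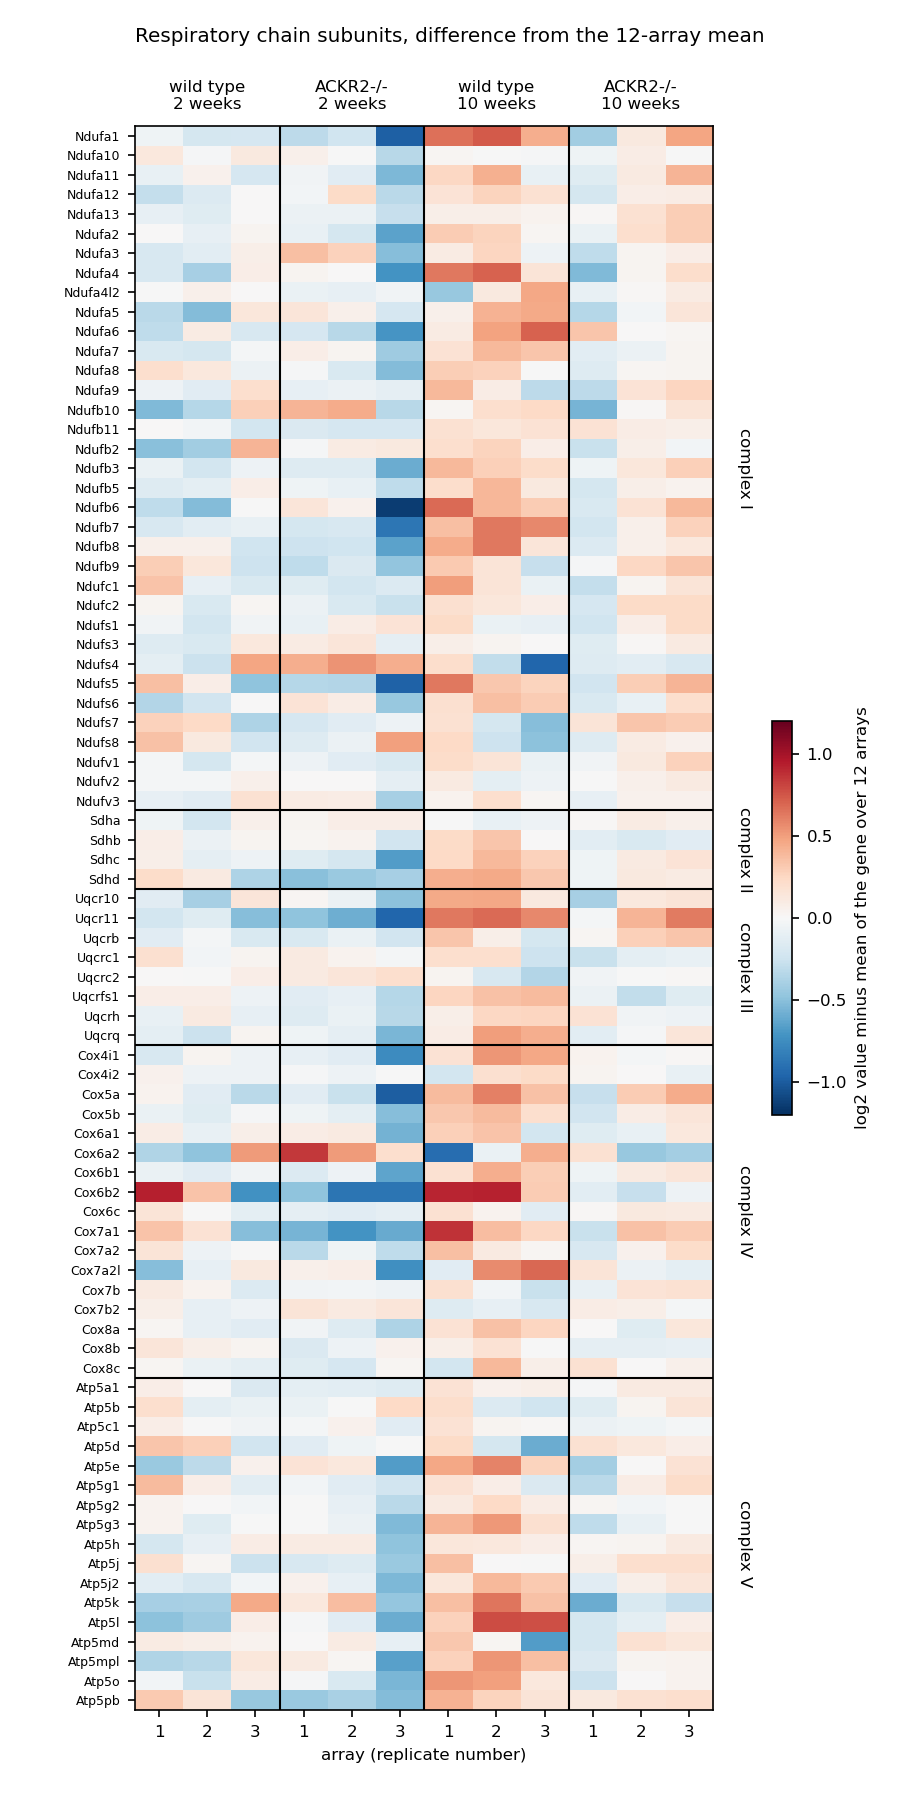
Each row is a subunit and each column an array; colour gives the log2 value minus the gene's mean over 12 arrays. Red columns stand out in the wild type 10-week group, and ACKR2-/- 2-week array 3 is the bluest column, being the lowest array for 48 of the 81 subunits.

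The shared movement of the subunits fell on particular arrays. The mean log2 value over the 81 subunits was 10.79, 10.72 and 10.77 on wild type 2-week arrays 1 to 3 and 10.76, 10.75 and 10.46 on ACKR2-/- 2-week arrays 1 to 3. At 10 weeks it was 11.04, 11.07 and 10.91 in wild type and 10.69, 10.86 and 10.93 in ACKR2-/-. ACKR2-/- 2-week array 3 was thus the lowest and the wild type 10-week arrays 1 and 2 the highest, while ACKR2-/- 10-week array 3 lay just above wild type array 3. ACKR2-/- 2-week array 3 was the lowest of 12 for 48 of 81 subunits, against 14.3% of all genes, and it is the array with the highest B cell marker mean, 12.52. The wild type 10-week arrays 1 and 2 were the highest of 12 for 19 and 32 subunits, against 8.64% and 7.59% of all genes. Among the 6 arrays of 10 weeks, ACKR2-/- array 1 was the lowest for 49 of 81 subunits, against 10.9% of all genes.

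**Figure D2:**
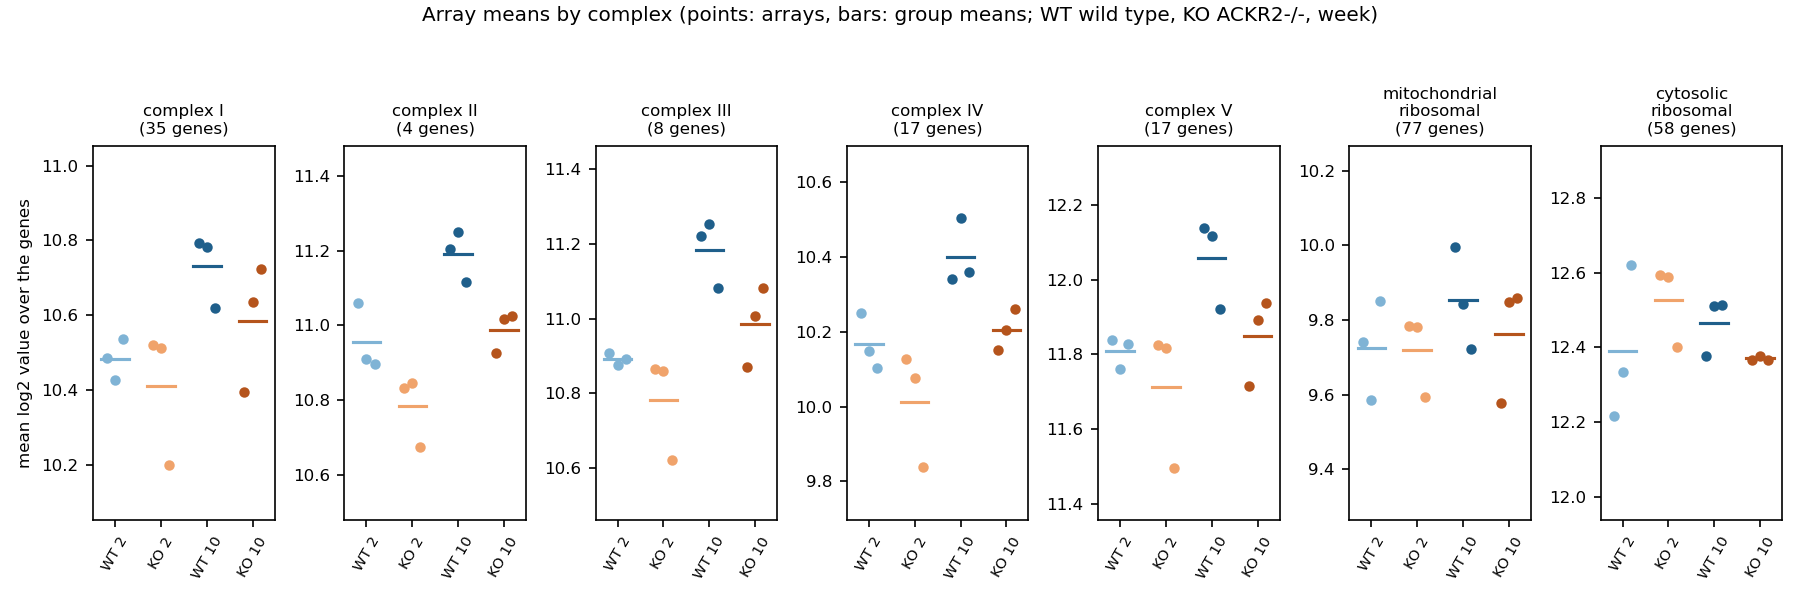
Points are the mean log2 value of a complex's subunits on 1 array, bars the mean of 3 arrays, with mitochondrial and cytosolic ribosomal proteins as other large families; each panel has its own axis of equal span. In all 5 complexes the wild type 10-week arrays lie above every 2-week array, and ACKR2-/- 2-week array 3 is the lowest point of all 5 complexes.

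From 2 to 10 weeks in wild type, no subunit passed the test, but 30 of 81 had all 3 arrays of 10 weeks above all 3 of 2 weeks, a share of 37.0% against 5.29% of all 19938 genes. Only Cox7b2, a testis-expressed complex IV isoform, lay entirely lower (3.45% of all genes did so). Its signal was low, with a mean above that of only 16.7% of all genes. The groups hardly parted, with a highest 10-week value of 6.2091 and a lowest 2-week value of 6.2107. The 30 were 13 of complex I, 2 of complex II, 3 of complex III, 5 of complex IV and 7 of complex V. The median log2 difference was 0.22 over the subunits and 0.03 over all genes, and 67 of 81 differences were above 0. The limma test of these 6 arrays, adjusted by Benjamini-Hochberg over all genes, called 0 subunits and 0 genes (0%), with 27 subunits and 2.89% of all genes at an unadjusted p under 0.05. Every adjusted p was at least 0.974.

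The 3 subunits with the lowest p in this comparison were Uqcr11, Ndufa1 and Ndufb7. Uqcr11, the smallest subunit of complex III, read 9.96, 10.04 and 9.68 on the wild type 2-week arrays and 10.82, 10.86 and 10.76 at 10 weeks. The groups stood well apart, with a difference of 0.92 ± 0.15 (limma SE, 3 arrays against 3). Ndufa1, an X-linked accessory subunit needed to assemble complex I, read 9.81, 9.65 and 9.66 and then 10.53, 10.60 and 10.30. Its lowest 10-week array lay above its highest 2-week array, and the difference was 0.77 ± 0.14. Ndufb7, an accessory subunit of the complex I membrane arm, read 10.28, 10.34 and 10.37 and then 10.82, 11.10 and 11.04, a difference of 0.66 ± 0.13 between groups that do not overlap. Wild type 2-week array 3, which lacks mast cell transcripts, lay close to the other 2-week arrays in Ndufa1 and Ndufb7 and below them in Uqcr11.

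Other subunits of the wild type time course include Atp5l, subunit g of the ATP synthase membrane part, which read 10.25, 10.32 and 10.83 at 2 weeks and 11.02, 11.54 and 11.52 at 10 weeks. The groups did not overlap (0.89 ± 0.23), and its other 5 probe sets followed the kept one with correlations of at least 0.978 over the 12 arrays. Ndufb6, also of the complex I membrane arm, read 11.18, 10.96 and 11.47 and then 12.16, 11.87 and 11.79 (0.74 ± 0.19). Cox5a, the subunit of complex IV that binds next to Cox4, read 9.96, 9.79 and 9.59 and then 10.29, 10.52 and 10.27 (0.59 ± 0.15). In all of these the groups stood apart. The 6 nuclear core subunits of complex I in the list, most of which carry its flavin or iron-sulfur clusters (Ndufs1, Ndufs3, Ndufs7, Ndufs8, Ndufv1 and Ndufv2) had a median difference of 0.04 and none stood apart. Of the 77 mitochondrial ribosomal proteins 15 lay entirely higher, with a median difference of 0.16, and of the 58 cytosolic ones 0 did, with a median of 0.07. Without wild type 2-week array 3 the count of subunits standing higher was 40 (10.2% of all genes). Over these arrays the mast cell marker mean was 12.72, 12.60 and 6.68 at 2 weeks and 12.73, 12.51 and 12.36 at 10 weeks. Monocyte and macrophage markers averaged 9.28, 10.30 and 11.50 and then 9.46, 10.70 and 10.23. The part of cell makeup in the subunits' difference was not tested.

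**Figure D3:**
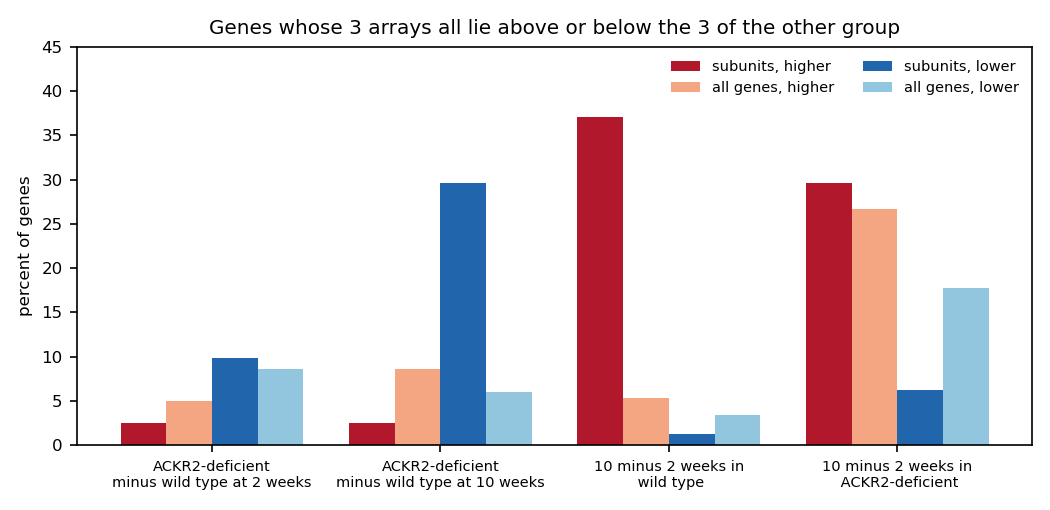
Bars give the percent of genes whose 3 arrays all lie above (red) or all below (blue) the 3 arrays of the other group, for the 81 subunits (dark) and for all 19938 genes (light). The subunits reach 37.0% higher in wild type over time and 29.6% lower in ACKR2-/- at 10 weeks.

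At 10 weeks the ACKR2-/- arrays held lower values than wild type for many subunits, again without a call. In 24 of 81 (29.6%) all ACKR2-/- arrays lay below all wild type arrays, against 5.98% of all genes, and in 2, Sdha and Cox7b2, all lay above (8.61% of all genes). Cox7b2 did so at low signal, at most 6.21 in wild type and at least 6.29 in ACKR2-/-. The 24 were 6 of complex I, 3 of complex II, 1 of complex III, 6 of complex IV and 8 of complex V. The median difference was -0.17 over the subunits and 0.01 over all genes, or -0.09 and 0.09 with arrays centred on their median, and 61 of 81 lay below 0 without that centring. Ribosomal proteins also leaned lower, without centring. Of the 77 mitochondrial ones 57 lay below 0, 10 entirely lower and 1 entirely higher, with a median of -0.09. Of the 58 cytosolic ones 45 lay below 0, 6 entirely lower and 4 entirely higher, with a median of -0.08. The limma test with Benjamini-Hochberg adjustment called 0 subunits and 0 genes (0%), with 17 subunits and 10.5% of all genes at an unadjusted p under 0.05. All 6 arrays of this comparison carry mast cell transcripts, and its wild type arrays are the same 3 as in the time course above. The 2 comparisons thus share arrays, and high values on these 3 move both.

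The 3 subunits with the lowest p at 10 weeks were Atp5k, Cox6b2 and Uqcrfs1. Atp5k, subunit e of the ATP synthase, which with subunit g helps the enzyme form dimers, read 10.04, 10.32 and 10.03 in wild type and 9.08, 9.50 and 9.41 in ACKR2-/-. The 2 groups stood apart, with a difference of -0.80 ± 0.15. Cox6b2, the testis isoform of a complex IV subunit on the side of cytochrome c, read 8.84, 8.85 and 8.23 against 7.80, 7.65 and 7.87 (-0.87 ± 0.19). Uqcrfs1, the Rieske iron-sulfur protein of complex III, read 9.80, 9.90 and 9.93 against 9.48, 9.25 and 9.41 (-0.50 ± 0.12). All ACKR2-/- arrays were the lower ones in each, and the adjusted p of limma was 0.380 for all 3.

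In complex V, Atp5l read 11.02, 11.54 and 11.52 in wild type against 10.54, 10.64 and 10.83 in ACKR2-/- (-0.69 ± 0.17, limma adjusted p 0.380). Atp5g3, a gene for the proton-carrying c-ring, read 12.41, 12.51 and 12.19 against 11.70, 11.91 and 11.99 (-0.50 ± 0.14). The groups stood apart in both, whereas Atp5g1, another c-ring gene, read 12.63, 12.53 and 12.28 against 12.13, 12.55 and 12.68 and overlapped. In complex II, Sdhd, a membrane anchor, read 11.10, 11.12 and 10.99 against 10.61, 10.78 and 10.76. Sdhb, the iron-sulfur subunit, read 10.68, 10.78 and 10.45 against 10.32, 10.27 and 10.32, and Sdhc, the other anchor, 11.57, 11.71 and 11.60 against 11.27, 11.43 and 11.49. These 3 genes of complex II stood lower in ACKR2-/-, with differences of -0.35 ± 0.11, -0.33 ± 0.13 and -0.23 ± 0.12. Sdha alone of complex II stood higher, at 11.48, 11.39 and 11.43 against 11.50, 11.58 and 11.54, a difference of 0.11 ± 0.11 that is about as large as its standard error.

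The count at 10 weeks moved with the scaling of the arrays: with each array centred on its own median, 10 subunits stood lower (3.42% of all genes), and under quantile normalization over genes 28 did (6.52% of all). Without wild type 10-week array 3 it was 37 (10.6% of all genes). Without wild type 10-week array 1 it was 34, but there 22.2% of all genes stood lower, and without ACKR2-/- 10-week array 1 it was 27 (13.5% of all genes). The groups also differed in other cell types' transcripts. Neutrophil markers averaged 8.95, 10.20 and 7.79 in wild type and 7.35, 6.70 and 6.56 in ACKR2-/-, and the eosinophil markers 8.73, 8.61 and 7.28 against 7.02, 6.84 and 6.71. Monocyte and macrophage markers averaged 9.46, 10.70 and 10.23 against 10.04, 7.62 and 7.36, and mast cell markers 12.73, 12.51 and 12.36 against 12.53, 12.03 and 11.97. Of the 13 mast cell markers, though, 7 were higher and 6 lower in ACKR2-/-. Their median difference was 0.14 and the lowest was -3.22. The part of these cells in the subunits' difference was not tested.

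From 2 to 10 weeks in ACKR2-/- 11 of 81 subunits (13.6%) passed the limma test, 10 higher and 1 lower, against 25.1% of all genes (15% higher, 10.1% lower). The 2-week arrays of this comparison are the 3 without mast cell transcripts, so no value without them can be given. The median difference was 0.15 over the subunits and 0.06 over all genes, or 0.04 and 0.02 with quantile normalization. In all, 22 subunits and 37.3% of all genes had an unadjusted p under 0.05. By complex, 3 rose and 1 fell of 35 in complex I, and 1 of 4 in complex II, 2 of 8 in complex III, 2 of 17 in complex IV and 2 of 17 in complex V rose. Groups stood apart with 10 weeks higher in 24 subunits (26.7% of all genes) and lower in 5 (17.7%). The count standing higher was 14 with quantile normalization (22.8% of all genes) and 46 without ACKR2-/- 10-week array 1 (34% of all genes). With quantile normalization the calls were 9, of which 5 were higher and 4 lower, against 25.4% of all genes. With median centring they were 11, of which 9 were higher and 2 lower, against 22.5% of all genes. With the mean of a gene's probe sets 10 were called, of which 9 were higher and 1 lower, against 25.1% of all genes. With all 12 arrays in the fit 4 were called (16.8% of all genes).

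Uqcr11 rose most, from 9.70, 9.60 and 9.23 at 2 weeks to 10.16, 10.60 and 10.80 at 10 weeks, by 1.01 ± 0.20 (limma adjusted p 0.0143). Cox7a1, the heart and skeletal muscle isoform of a complex IV subunit, rose from 7.43, 7.26 and 7.37 to 7.71, 8.33 and 8.29 (0.76 ± 0.18, limma adjusted p 0.0258). In both, 10-week array 1 was the lowest of its group but above every 2-week array. Atp5pb, subunit b of the ATP synthase stator, rose from 11.53, 11.58 and 11.45 to 12.09, 12.16 and 12.17 (0.62 ± 0.08, limma adjusted p 0.00198). Cox6b2 rose from 7.44, 7.05 and 7.05 to 7.80, 7.65 and 7.87 (0.59 ± 0.13), and Ndufb9, an accessory subunit of the complex I membrane arm, from 11.19, 11.32 and 11.03 to 11.49, 11.74 and 11.83 (0.51 ± 0.13). Sdhd rose from 10.16, 10.22 and 10.26 to 10.61, 10.78 and 10.76 (0.50 ± 0.08, limma adjusted p 0.00666). The arrays of the 2 times did not overlap in any of these genes. The other calls were Atp5j, coupling factor 6 of the stator, Ndufs7, a core iron-sulfur subunit of complex I, Uqcrb of complex III and Ndufb11 of complex I. Their rises were 0.30 to 0.42, and these 4 are named after their values were seen. A second probe set of Ndufb11 moved less, from 12.55, 12.52 and 12.48 to 12.63, 12.63 and 12.60. The other probe sets of Uqcrb overlapped between the times (correlations with the kept one 0.772 and 0.895). Second probe sets of Uqcr11 and Atp5pb stood apart as the kept ones did (0.984 and 0.943). With all 12 arrays in the fit, the calls left were Uqcr11, Atp5pb, Sdhd and Ndufb11. Cox7a1 (limma adjusted p 0.0632), Atp5j (0.0763), Ndufb9 (0.0908), Uqcrb (0.0954), Ndufs7 (0.213) and Cox6b2 (0.295) were not called there.

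Ndufs4, an accessory subunit of complex I whose loss causes a mitochondrial disease in mice and humans, was the 1 subunit called lower in ACKR2-/- over time in the 6-array fit. It read 11.56, 11.66 and 11.55 at 2 weeks and 10.97, 10.99 and 10.92 at 10 weeks, so it fell by 0.63 ± 0.07 (limma adjusted p 0.00174). With all 12 arrays in the fit it was not called (limma adjusted p 0.137). In wild type it read 11.00, 10.86 and 11.60 at 2 weeks and 11.33, 10.83 and 10.17 at 10 weeks, and the groups overlapped. Wild type 2-week array 3, without mast cell transcripts, sat at the level of the ACKR2-/- 2-week arrays. The same held for Atp5pb and Sdhd, whose value on that array (11.52 and 10.29) lay below wild type 2-week arrays 1 and 2 (12.29 and 12.13, and 10.88 and 10.77) and near the ACKR2-/- 2-week arrays.

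**Figure D4:**
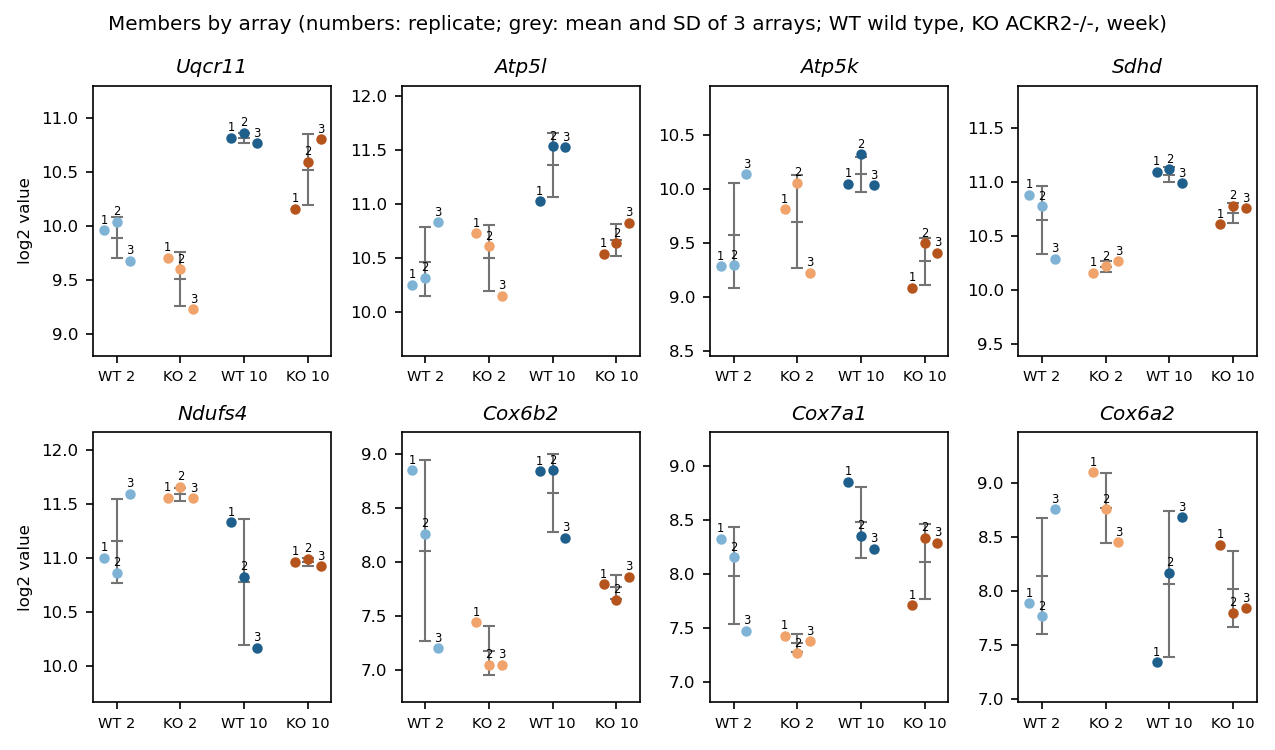
Points are log2 values of 8 subunits on each array, numbered by replicate, with the mean and SD of 3 arrays in grey; each panel has its own axis. In Sdhd, Ndufs4, Cox6b2 and Cox7a1, wild type array 3 of 2 weeks lies close to the ACKR2-/- 2-week arrays and away from arrays 1 and 2 of its own group.

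At 2 weeks no subunit differed between the genotypes by the test. The limma test with Benjamini-Hochberg adjustment called 0 subunits and 0 genes (0%), with 2 subunits and 7.29% of all genes at an unadjusted p under 0.05. In 8 subunits all ACKR2-/- arrays were lower (8.60% of all genes) and in 2 higher (4.97%), shares near or below the background. The median difference was -0.09 over the subunits and -0.02 over all genes, and 0.01 over the subunits with quantile normalization. The lowest p belonged to Cox7a1 (-0.63 ± 0.23), Sdhd (-0.43 ± 0.17) and Uqcr11 (-0.38 ± 0.17), all with a limma adjusted p of 0.464. Cox7a1 read 8.32, 8.15 and 7.47 in wild type and 7.43, 7.26 and 7.37 in ACKR2-/-, so that array 3 of wild type stood just above the ACKR2-/- arrays and the others far above. Without wild type 2-week array 3, 10 subunits were called by limma, 3 higher and 7 lower, against 24.5% of all genes. That comparison sets 2 arrays with mast cell transcripts against 3 without.

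**Figure D5:**
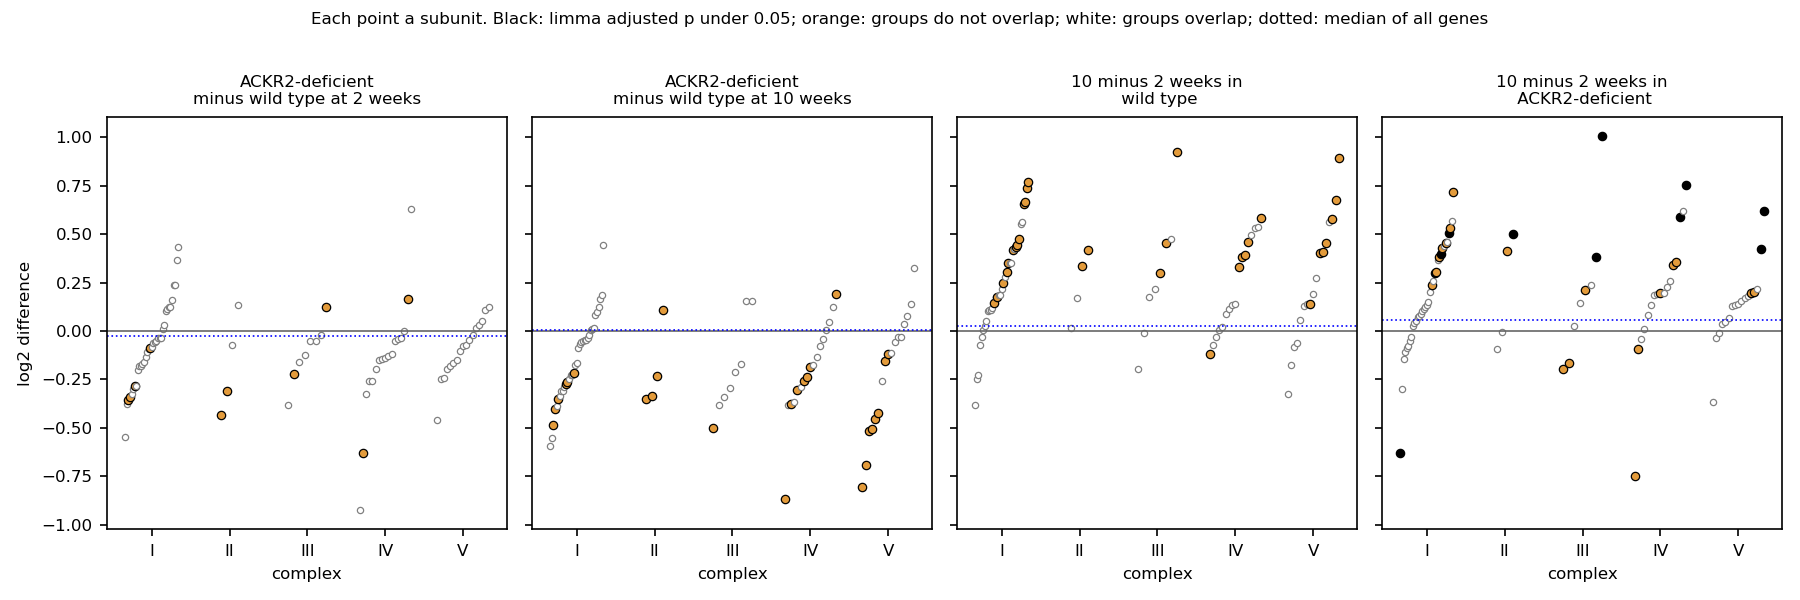
Each point is the log2 difference of a subunit in 1 of 4 comparisons, sorted within its complex; black points passed the limma test, orange points have groups that do not overlap, and the dotted line is the median of all genes. In wild type over time 67 of 81 points lie above 0, and between the genotypes at 10 weeks 61 of 81 lie below it.

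The test of whether the change over time differed between genotypes called no subunit. In the 12-array limma fit 0 subunits and 0 genes (0%) passed, with 3 subunits and 11.4% of all genes at an unadjusted p under 0.05, and the median interaction was -0.03 (0.02 over all genes). The lowest p belonged to Atp5k (-0.93 ± 0.37), Atp5l (-0.72 ± 0.30) and Ndufa5 (-0.63 ± 0.28), the last an accessory subunit of the complex I matrix arm, with limma adjusted p of 0.424 to 0.428. Atp5k read 9.28, 9.29 and 10.13 in wild type and 9.81, 10.06 and 9.22 in ACKR2-/- at 2 weeks, where the groups overlapped. Without wild type 2-week array 3 the interaction called 6 subunits, against 15.7% of all genes.

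Some subunits come in general and tissue-restricted forms, and 8 genes of the latter kind were measured, 7 of complex IV and the hypoxia-induced Ndufa4l2. Their mean on an array lay between 7.35 and 7.78, and the 8 striated muscle markers averaged 7.24 to 7.62 on all arrays. Cox6b2 varied most, at 8.85, 8.27 and 7.20 in wild type and 7.44, 7.05 and 7.05 in ACKR2-/- at 2 weeks, which puts the 4 arrays without mast cell transcripts at the bottom. Its general form Cox6b1 read 12.13, 12.08, 12.17, 12.05, 12.15 and 11.59 on the same 6 arrays and showed no such split. At 10 weeks Cox6b1 read 12.40, 12.65 and 12.51 in wild type and 12.17, 12.32 and 12.37 in ACKR2-/-, lower in every ACKR2-/- array (-0.24 ± 0.12), as Cox6b2 was.

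Cox6a2, the muscle form of another complex IV subunit, went the other way. It read 7.89, 7.77 and 8.76 in wild type and 9.10, 8.76 and 8.45 in ACKR2-/- at 2 weeks, and 7.34, 8.17 and 8.68 in wild type and 8.43, 7.80 and 7.84 in ACKR2-/- at 10 weeks. Its values on the 4 arrays without mast cell transcripts ran from 8.45 to 9.10, but ACKR2-/- array 1 and wild type array 3 of 10 weeks reached 8.43 and 8.68 as well. Its difference in ACKR2-/- over time, -0.75 ± 0.23, did not pass (limma adjusted p 0.0628). The general form Cox6a1 read between 12.34 and 13.24 on the 12 arrays, with ACKR2-/- 2-week array 3 the lowest. Cox7a2, the general form of Cox7a1, read between 10.22 and 10.91, and Cox7a2l, a relative of it, between 10.55 and 11.98. Cox4i2, the lung and hypoxia form of Cox4, ranged over only 0.45 and Cox8b, a muscle form, over 0.35, while general Cox4i1 and Cox8a ranged over 1.28 and 0.72. Among other subunits, Cox6c of complex IV ranged over 0.32, Ndufc2 of complex I over 0.50, Atp5g2 of the c-ring over 0.56 and Uqcrh, the hinge protein of complex III, over 0.59.

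The genes around the chain were described from lists of assembly factors, electron carriers and regulators. In ACKR2-/- over time, where 25.1% of all genes were called, 4 of 14 complex I assembly factors rose and 1 fell. Ndufaf2, a late assembly factor, rose by 0.55 ± 0.13 and Ndufaf3 by 0.51 ± 0.09, while Nubpl, which delivers iron-sulfur clusters to complex I, fell by 0.55 ± 0.14. Of 10 assembly factors of complexes II and III, 0 rose and 2 fell, Sdhaf1 (-0.39 ± 0.10) and Uqcc1 (-0.29 ± 0.08). Of 19 complex IV assembly factors 3 rose, led by Surf1, an early factor, at 0.58 ± 0.11. Of 4 complex V assembly factors 1 rose, Atpaf1, a chaperone of the catalytic head (0.39 ± 0.09). None of these shares is read against the background, since the lists are small.

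Among 19 electron carriers and donors, 4 rose and 1 fell in ACKR2-/- over time (26.3% called). Over all genes 25.1% were called there, 15% higher and 10.1% lower. Gpd2, the mitochondrial glycerol phosphate dehydrogenase that feeds electrons to ubiquinone, rose by 1.31 ± 0.30, Coq10a, a ubiquinone-binding protein, by 0.68 ± 0.11, and Etfb, part of the carrier from fatty acid oxidation, by 0.49 ± 0.09. Of 7 genes of inhibitors and remodelling, Bnip3, a mitophagy receptor, rose by 2.39 ± 0.16 and Atpif1, the inhibitor of ATP synthase, by 1.07 ± 0.22. Pdk1, the kinase that shuts off pyruvate dehydrogenase, fell by 3.20 ± 0.47. In all, 3 genes of that list rose and 1 fell (57.1% called). These values set arrays without mast cell transcripts against arrays with them. Of 21 regulators of mitochondrial gene expression 0 rose and 6 fell (28.6% called, against 25.1% of all genes). Among the 6 were Polg2 and Polg, subunits of the mitochondrial DNA polymerase (-1.27 ± 0.10 and -0.75 ± 0.19). Gabpb2, a partner of GABPA (-0.80 ± 0.15), and, named after its value was seen, Nrf1 (-0.69 ± 0.13) also fell. No share of these lists is read against the background, since the lists are small. None of the genes of these lists was called in the other 3 comparisons or in the interaction.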

How the data were processed

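The deposited table holds log2 values of the authors; the submitters' processing notes name Partek 6.5 and RMA, a method that subtracts background, sets the arrays to one distribution and combines probes. A genome build is not given in the sources used here. Detection calls, slides and scan dates were not analysed here, so the number of arrays limits the precision. Of 35399 probe sets, 21789 had 1 symbol in the platform annotation, 1621 several and 11989 none; the probe set with the highest mean was kept per gene, which left 19938 genes. The subunits had 105 probe sets, and 16 subunits had several; Cox7c and Ndufb4, whose probe sets carry several symbols, were left out. Apart from the further probe sets named for single genes, values of different probe sets were not set against each other.

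Each comparison was fitted with limma 3.58.1 (lmFit, eBayes) in R 4.3.3 on the 6 arrays of its groups, the interaction on all 12, with Benjamini-Hochberg adjustment over all genes and a threshold of 0.05. Only the groups compared were fitted because wild type 2-week array 3 stands apart. Errors are limma standard errors. The fit was tested on simulated data. The same replicate numbers were checked for pairing by correlating deviations from group means: all 3 pairs exceeded 0.1 only between the wild type groups (0.166 to 0.359), from the data and not the labels, and the block changed no call there.

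The subunits, lists and comparisons were chosen with earlier results of these data known, and counts of groups that do not overlap were added after seeing the data. Named subunits follow a rule: per comparison up to 6 called in each direction or else the 3 with the lowest p, the Sdh genes, the highest mean per complex, isoform families and the 8 widest ranges; others were named after their values were seen. Of other lists at most 3 called genes per comparison are named. Alternatives were array centring, quantile normalization, the mean of a gene's probe sets, a filter on means under 6, array weights, another variance prior, the 12-array fit, a replicate block and leaving out each array.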

Additional observations from a re-analysis of the deposited data

How the results depend on the processing

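Calls in ACKR2-/- over time were 4 with all 12 arrays in the fit (16.8% of all genes), 7 (5 higher, 2 lower) with the replicate number as a block (20.2%) and 27 with array weights (43.7%). Array weights also called 17 subunits between genotypes at 2 weeks, 50 at 10 weeks, 48 in wild type over time and 9 in the interaction, where the unweighted fits called none, beside 38%, 47.6%, 22.7% and 20.7% of all genes; the weights of 3 fits stopped before convergence. Cox8c at 10 weeks reversed with array weights, to -0.33 (limma adjusted p 0.0116). Without single arrays the calls ranged from 0 to 10 (0% to 24.5% of all genes) between genotypes at 2 weeks, 3 to 14 in ACKR2-/- over time and 0 to 6 (0% to 15.7%) in the interaction, and stayed at 0 in the other comparisons. In ACKR2-/- over time they were 3 without 10-week array 3 (16.3% of all genes), 4 without 10-week array 2 (16.9%) or 2-week array 2 (16.5%), 5 without 2-week array 1 (17.2%) and 14 without 10-week array 1 (26.1%). Medians ranged from -0.15 to -0.03 and from -0.24 to -0.11 between genotypes at 2 and 10 weeks, 0.19 to 0.29 in wild type and 0.06 to 0.22 in ACKR2-/- over time, and -0.10 to 0.01 for the interaction, which was -0.16 with quantile normalization. Without single arrays, subunits standing lower at 10 weeks ranged from 24 (7.99% of all genes) to 37 (10.6%). The largest share of all genes there, 22.2%, went with 34 subunits. Those standing higher in wild type over time ranged from 30 (7.68%) to 42 (7.62%), and the largest share, 21.6%, went with 37. In ACKR2-/- over time they ranged from 25 (28.8% to 34.8%) to 46 (34%). Subunits standing apart were 10 lower at 10 weeks with centred arrays (3.42%) and 14 higher in ACKR2-/- over time with quantile normalization (22.8%). Of 6075 single-gene values under an alternative, 2863 without 1 array and 2989 under other settings kept their side of the threshold. These counts include values that changed direction where neither fit called the gene. The cause of these shifts was not tested. The replicate block changed no other call count; its numbers pair no ACKR2-/- groups by the labels.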

Other observations

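In ACKR2-/- over time, 5 of 77 mitochondrial ribosomal proteins rose and 2 fell, against 25.1% of all genes called in either direction. Mrpl14 rose by 0.87 ± 0.14, Mrpl36 by 0.70 ± 0.12 and Mrps26 by 0.66 ± 0.11. Of the 58 cytosolic ribosomal proteins 3 rose and 6 fell, and their median difference was -0.13. Rpl12 fell by 1.37 ± 0.30, Rps15a fell by 1.13 ± 0.17, and Rps27l rose by 0.93 ± 0.13. The limma test called 0 genes of either family in the other comparisons.

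Of 18 genes of the citric acid cycle and pyruvate dehydrogenase, 1 rose and 2 fell in ACKR2-/- over time (16.7% called). Over all genes 25.1% were called there, and the share is not read against it, since the list is small. Pcx, pyruvate carboxylase, which feeds the cycle with oxaloacetate, rose by 2.90 ± 0.19, and Pdha1 and Ogdh fell by 0.58 ± 0.14 and 0.51 ± 0.10. Of 9 adenine nucleotide and proton carriers 3 were called (33.3%), a list too small to read against the background. Vdac3 and Vdac1, pores of the outer mitochondrial membrane, rose by 0.45 ± 0.08 and 0.39 ± 0.08, and Ucp3 fell by 0.28 ± 0.08. The 2-week side of all these values is the group without mast cell transcripts.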
